A study of Mus musculus with 9 samples.

Results

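The genes described here were 40 molecular chaperones, chaperone partners and heat shock regulators, taken by gene symbol from a table of 24421 genes. They comprised the HSP90 pair (2 genes), 6 HSP90 co-chaperones, 7 HSP70 and HSP110 genes, 5 HSP70 co-factors, 5 DNAJ genes, 3 small heat shock proteins, 3 mitochondrial chaperones, 7 subunits of the CCT ring and 2 heat shock factors. The list was chosen by function. It was proposed with earlier results of these data in view, among them the difference in *Hsp90aa1* between treated and untreated *db/db* mice. All 40 members were found, all 40 passed the filter on low values, and 0 were left out, among 15583 genes tested.

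RNA had been sequenced from proximal tubular epithelial cells of 9 mice, with 3 in each of the groups *db/db*-dapa, *db/db* and *db/m*. All 9 animals were C57BL/6 mice with the SLC34a1GCE allele, a tamoxifen-dependent Cre driven from the locus of the sodium-phosphate cotransporter of the proximal tubule, and with the R26tdTomato reporter, and all had received 5 injections of 3 mg tamoxifen at 8 weeks of age. *db/m* mice carry 1 mutant copy of the leptin receptor gene and served as non-diabetic controls, *db/db* mice carry the mutation on both copies and drank vehicle, and *db/db*-dapa mice drank dapagliflozin, an inhibitor of the glucose transporter SGLT2, at 1.5 mg/kg/day for 8 weeks. Sorting was for tdTomato-positive cells, in which the reporter had been switched on, and the labels themselves name only kidney as the source.

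Molecular chaperones bind unfolded or newly made proteins and help them to fold, or hand them over for breakdown. HSP70 works in an ATP-driven cycle that DNAJ proteins start and nucleotide exchange factors end, HSP90 takes over partly folded clients such as kinases and steroid receptors, and the CCT ring encloses actin and tubulin. When unfolded proteins accumulate, the transcription factor HSF1 is released from chaperones and binds heat shock elements, repeats of the unit GAA in alternating orientation, in the promoters of many of these genes.

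Heat shock elements are shown first because they are the shared sequence feature by which this class of promoter is known. The window searched was the 250 bases before each RefSeq start (GRCm38.p6). The element was at least 3 units, GAA and TTC in alternation with 2 bases of any kind between neighbours, on either strand. Promoter windows were matched for 32 of the 40 members. Entries for *Hsf1*, *Hsp90aa1*, *Cryab*, *Hspa8*, *St13*, *Cct4*, *Hsp90ab1* and *Hspa9* were not matched. The element was present in 3 of those 32 members (9.38%), and in 139 of all 27025 genes with a window (0.514%). In the sequences below, capitals mark the matched units and the bases between them.
Hspd1 (chr1:55088059-55088076, minus strand): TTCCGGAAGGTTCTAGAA
Hspe1 (chr1:55088059-55088076, plus strand): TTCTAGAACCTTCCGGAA
Dnajb6 (chr5:29735844-29735872, plus strand): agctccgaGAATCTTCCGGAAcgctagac
The first 2 are the same 18 bases read on opposite strands, since *Hspd1* and *Hspe1*, which encode the mitochondrial chaperonin HSP60 and its lid HSP10, are transcribed away from a common promoter. The element lay 144 to 127 bases before the *Hspd1* start and 89 to 72 bases before the *Hspe1* start.

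A shorter form with at least 2 units was looked for after the 3-unit result had been seen. It was present in 14 of the 32 members (43.8%) and in 3932 of all 27025 genes (14.5%), and the 3-unit matches are counted in it. The 14 were *Cdc37*, *Fkbp4*, *Hspa1a*, *Hspa1b*, *Hsph1*, *Stub1*, *Dnaja1*, *Dnajb4*, *Dnajb6*, *Hspb1*, *Hspd1*, *Hspe1*, *Cct2* and *Cct5*. These lines show only the 2-unit matches of the inducible HSP70 pair, of an HSP40 partner and of HSP110, whose values are described further on.
Hspa1a (chr17:34972213-34972300, minus strand): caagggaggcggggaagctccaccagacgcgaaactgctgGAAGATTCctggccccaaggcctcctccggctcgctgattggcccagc
Hspa1b (chr17:34959295-34959382, minus strand): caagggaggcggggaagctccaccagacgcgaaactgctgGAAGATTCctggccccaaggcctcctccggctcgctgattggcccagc
Dnaja1 (chr4:40722336-40722359, plus strand): agcctctaGAAAATTCtacgaggc
Hsph1 (chr5:149636354-149636377, minus strand): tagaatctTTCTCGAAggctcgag
The stretches of *Hspa1a* and *Hspa1b* are identical, and 247 of the 250 bases before their starts matched without gaps (98.8%). A match is a description of letters, and binding was not measured in this study.

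Totals of estimated counts ranged from 2733314 counts (*db/db* replicate 1) to 9033062 counts (*db/db*-dapa replicate 3), values are given as CPM, the counts scaled by library size and TMM factor, and Pearson correlations within groups were 0.955 to 0.992. All 10 proximal tubule markers were detected in every mouse, with summed levels of 14591 to 22245 CPM. Markers of the distal nephron were also present, with collecting duct principal cell markers at 134 to 707 CPM in sum. Podocyte markers summed to 220 CPM in *db/db*-dapa replicate 1 and to 16.5 to 72.7 CPM in the other 8 mice. In sorted bulk RNA, fewer cells of a type and less RNA per cell cannot be told apart.

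Chaperone transcripts were lower in *db/db* than in *db/m* mice across nearly the whole list. Of the 40 members, 39 had a log2 fold change below 0 and 1, *St13*, above 0, with a median of -0.53 against 0.02 over all genes tested. In the quasi-likelihood test of edgeR, with p-values adjusted over all 15583 genes by Benjamini-Hochberg, 9 of 40 (22.5%) fell at an adjusted p under 0.1 and 0 rose. Over all genes, 0.879% passed that threshold in the lower direction and 0.796% in the higher. The 9 were both HSP90 genes, the co-chaperones *Stip1*, *Ahsa1* and *Chordc1*, the constitutive HSP70 gene *Hspa8*, its co-factor *Bag3*, and the DNAJ genes *Dnaja1* and *Dnajb1*. Of these, 5 (*Stip1*, *Chordc1*, *Bag3*, *Dnaja1* and *Dnajb1*) also had an absolute log2 fold change over 1, where 0.699% of all genes were lower by both criteria.

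The groups of 3 mice did not overlap for 25 of the 40 members, which lay lower in every *db/db* mouse than in any *db/m* mouse, and for 0 members in the other direction. The shares over all genes were 8.13% lower and 8.28% higher. At an unadjusted p under 0.05 there were 21 members and 2142 genes. The summed level of the 40 members was 17453 to 20989 CPM in *db/m*, 10300 to 12320 CPM in *db/db* and 14559 to 20352 CPM in *db/db*-dapa mice. Summed levels of *db/db* mice lay below those of both other groups in each animal. The sum includes *Hsp90aa1*, whose difference between treated and untreated *db/db* mice was in view when the genes were listed. Its separation from *db/db*-dapa mice is a description only.

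The number of members with an adjusted p under 0.1 depended on single libraries. It was 0 of 40 without *db/m* replicate 1, 2 without *db/m* replicate 2 (*Chordc1* and *Dnaja1*) and 3 without *db/db* replicate 2 (*Chordc1*, *Hspa8* and *Dnaja1*). In both directions together, 1.67% of all genes passed in the analysis of all mice, and 0.552%, 0.975% and 0.809% with these mice left out. DESeq2 gave 16 members, and 5.11% of all genes. The direction of all 9 was lower in each of the 18 alternative analyses. Their adjusted p was under 0.1 in 17 of these for *Chordc1* and *Dnaja1*, 14 for *Hsp90ab1*, and 13 for *Hspa8* and *Dnajb1*. It was under 0.1 in 12 for *Bag3*, 11 for *Stip1* and *Ahsa1*, and 9 for *Hsp90aa1*. All 40 members, *Hsp90aa1* included, share their *db/db* mice with the comparison that was in view when the list was drawn up. The share of members called here is therefore not independent of how the list was chosen.

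**Figure D1:**
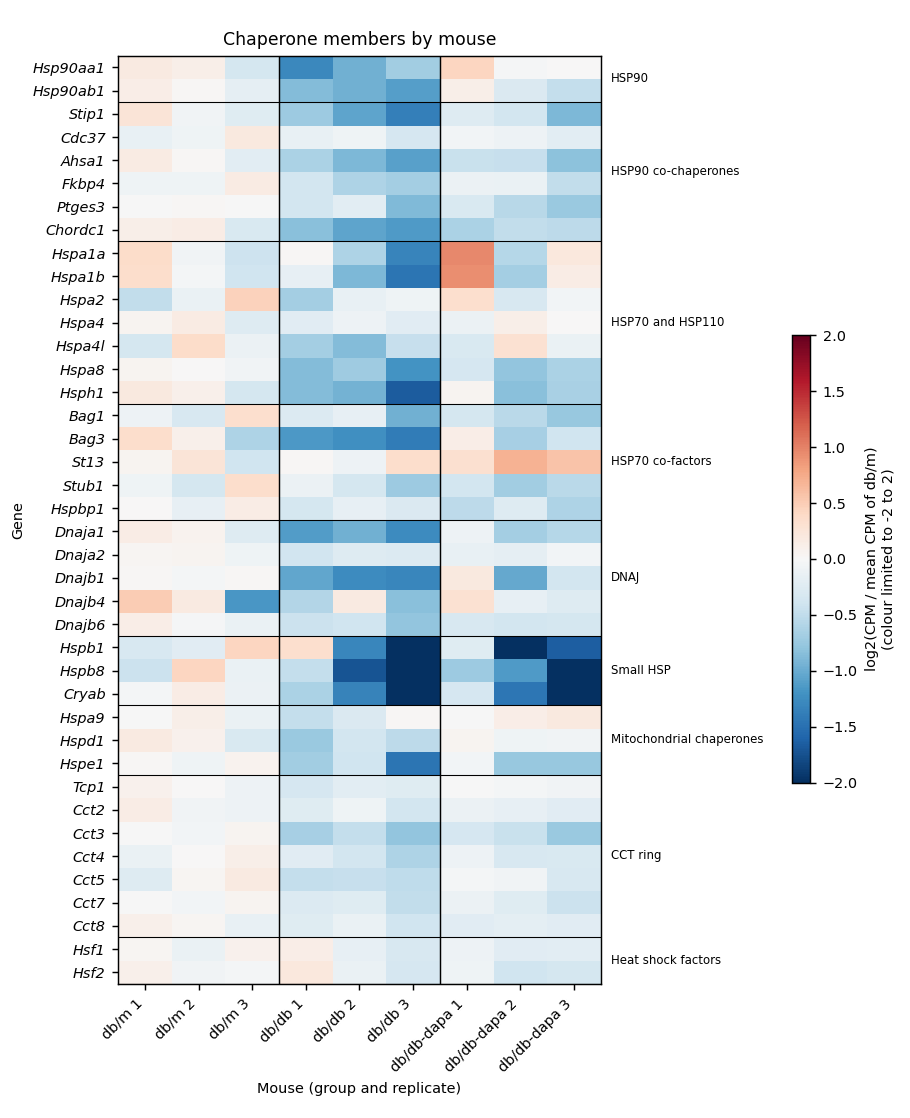
Heat map of the 40 members (rows, by family) in the 9 mice (columns), coloured by log2 of CPM over the mean CPM of the 3 *db/m* mice, with colours limited to -2 to 2. Most rows are blue in the 3 *db/db* columns, the heat shock factor and *St13* rows are pale or red there, and the small heat shock protein rows are also blue in *db/db*-dapa replicates 2 and 3.

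*Hsp90aa1* and *Hsp90ab1* encode the stress-inducible and the constitutive cytosolic HSP90. *Hsp90aa1* was at 1952, 1855 and 1340 CPM in the *db/m* mice, at 703, 879 and 1061 CPM in the *db/db* mice and at 2319, 1684 and 1734 CPM in the *db/db*-dapa mice. The *db/db* values were below all others, and the *db/m* and *db/db*-dapa values overlapped. Its log2 fold change between *db/db* and *db/m* was -0.96 (SE 0.23, edgeR quasi-likelihood adjusted p = 0.0891), and 0.304 was the highest adjusted p over the alternatives.

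*Hsp90ab1* was at 2501, 2337 and 2028 CPM in *db/m*, at 1250, 1172 and 1072 CPM in *db/db* and at 2472, 1879 and 1643 CPM in *db/db*-dapa mice. The 3 *db/db* mice again lay below the other 6. The log2 fold change between *db/db* and *db/m* was -0.97 (SE 0.20, edgeR quasi-likelihood adjusted p = 0.0450). The gene lies on chr17:45567775-45573271 (GRCm38, minus strand), and 0% of its 101-base windows occurred in transcripts of other genes. *Hsp90aa1* (chr12:110690605-110702728, minus strand) shared 47.3% of its windows with other annotated genes, *Gm12346* among them, so part of its reads could have been assigned to such copies.

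Among the co-chaperones that steer the HSP90 cycle, *Stip1*, the adaptor that links HSP70 to HSP90, was at 208, 166 and 147 CPM in *db/m* and at 105, 83.6 and 67.4 CPM in *db/db* mice. It fell by 1.03 on the log2 scale (SE 0.23, edgeR quasi-likelihood adjusted p = 0.0719). The 3 *db/db*-dapa mice were at 145, 134 and 93.0 CPM, below all *db/m* values and overlapping *db/db*. *Ahsa1*, which stimulates the HSP90 ATPase, was at 170, 155 and 131 CPM in *db/m*, at 97.9, 81.6 and 71.4 CPM in *db/db* and at 112, 111 and 86.4 CPM in *db/db*-dapa mice. All *db/m* values were above all others, while the *db/db* and *db/db*-dapa values overlapped, and the log2 fold change between *db/db* and *db/m* was -0.87 (SE 0.19, edgeR quasi-likelihood adjusted p = 0.0672).

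*Chordc1*, an HSP90 partner with zinc-binding CHORD domains, had the lowest adjusted p of the list. It was at 101, 103 and 75.0 CPM in *db/m*, at 52.0, 44.6 and 42.2 CPM in *db/db* and at 60.2, 65.9 and 64.9 CPM in *db/db*-dapa mice. The 3 groups did not overlap, with *db/db* lowest and *db/m* highest. The log2 fold change between *db/db* and *db/m* was -1.01 (SE 0.18, edgeR quasi-likelihood adjusted p = 0.0239), and the adjusted p stayed under 0.1 in 17 of 18 alternatives (highest 0.115).

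The other 3 co-chaperones had smaller differences that did not pass the test. *Fkbp4*, an immunophilin of steroid receptor complexes, was at 360 ± 37.2 CPM (SD, n = 3) in *db/m* and 246 ± 29.7 CPM in *db/db* mice (log2 fold change -0.55). *Ptges3*, the p23 protein that stabilises the closed form of HSP90, was at 206 ± 2.10 and 150 ± 34.3 CPM, a log2 fold change of -0.46. Both had non-overlapping groups. *Cdc37*, which delivers kinases to HSP90, was at 117, 122 and 148 CPM in *db/m* and at 117, 121 and 102 CPM in *db/db* mice, and these ranges overlapped (log2 fold change -0.18).

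*Hspa8*, the constitutive HSP70 (HSC70), had the highest CPM of the list, with 5524, 5317 and 5080 CPM in *db/m*, 2924, 3252 and 2308 CPM in *db/db* and 4195, 3086 and 3422 CPM in *db/db*-dapa mice. All *db/m* values lay above all others, and *db/db*-dapa overlapped *db/db*. The log2 fold change between *db/db* and *db/m* was -0.91 (SE 0.20, edgeR quasi-likelihood adjusted p = 0.0657). The gene lies on chr9:40800984-40810087 (plus strand), and 31.3% of its windows occurred in other annotated transcripts.

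The inducible HSP70 genes *Hspa1a* and *Hspa1b* varied widely within groups. *Hspa1a* was at 1143, 847 and 668 CPM in *db/m*, at 897, 577 and 353 CPM in *db/db* and at 1719, 596 and 1030 CPM in *db/db*-dapa mice, and all 3 groups overlapped. *Hspa1b* was at 1219, 928 and 724 CPM, at 852, 512 and 349 CPM and at 1825, 598 and 1061 CPM in the same order, and its groups overlapped too. The genes shared 48.4% and 49.7% of their windows, mainly with each other, so their sum is the safer value. The sum was 1843 ± 488 CPM in *db/m*, 1180 ± 529 CPM in *db/db* and 2276 ± 1185 CPM in *db/db*-dapa mice (SD, n = 3). The highest sum was in *db/db*-dapa replicate 1 (3544 CPM), the library with the highest podocyte markers. In its group it also had the highest sums of endothelial, stromal and immediate-early genes (174, 12.1 and 7671 CPM). Among *db/db* mice, replicate 1 had the highest sum of the pair (1748 CPM) and the lowest immediate-early sum (3595 CPM). The part of other cells or of cell dissociation in these values was not tested. Between *db/db* and *db/m* the log2 fold changes were -0.54 (SE 0.40) for *Hspa1a* and -0.75 (SE 0.40) for *Hspa1b*, with adjusted p-values of 0.585 and 0.446 by edgeR's quasi-likelihood test.

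*Hsph1*, the HSP110 that acts as a nucleotide exchange factor for HSP70, was at 640, 599 and 440 CPM in *db/m*, at 307, 292 and 177 CPM in *db/db* and at 584, 314 and 358 CPM in *db/db*-dapa mice. The *db/db* mice were lowest without overlap. With a log2 fold change of -1.12 (SE 0.28) it narrowly missed the threshold in edgeR's quasi-likelihood test (adjusted p = 0.109), and 5 of 18 alternatives put it below 0.1. *Hspa4l*, a relative of HSP110, was also apart, at 28.2, 46.6 and 33.3 CPM in *db/m* and 22.4, 19.8 and 26.1 CPM in *db/db* mice, with a log2 fold change of -0.65. *Hspa4* (log2 fold change -0.18) and the low *Hspa2*, known for its role in the testis (-0.24), had overlapping groups, and the sign of *Hspa2* turned in some alternatives.

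*Bag3*, a stress-induced HSP70 co-factor that feeds clients into autophagy, fell most among the co-factors. It was at 151, 128 and 77.7 CPM in *db/m*, at 53.7, 51.0 and 45 CPM in *db/db* and at 131, 74.8 and 90.2 CPM in *db/db*-dapa mice. The *db/db* mice lay below the other 6. The log2 fold change between *db/db* and *db/m* was -1.26 (SE 0.27, edgeR quasi-likelihood adjusted p = 0.0645).

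None of the remaining HSP70 co-factors passed the test. The nucleotide exchange factors *Bag1* (log2 fold change -0.43) and *Hspbp1* (-0.26) and the ubiquitin ligase *Stub1* (-0.38) had values below 0 between *db/db* and *db/m*, and of these *Hspbp1* alone had groups that did not overlap. *St13*, the HIP protein that stabilises HSP70 in its ADP state, was the member with a fold change above 0. It was at 164, 189 and 119 CPM in *db/m*, at 160, 147 and 200 CPM in *db/db* and at 196, 255 and 233 CPM in *db/db*-dapa mice. The *db/m* and *db/db* values overlapped (log2 fold change 0.10), and its sign turned in some alternatives.

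*Dnaja1*, a farnesylated DNAJ protein of the cytosol, was at 1138, 1075 and 861 CPM in *db/m*, at 470, 529 and 427 CPM in *db/db* and at 952, 641 and 690 CPM in *db/db*-dapa mice. The *db/db* mice were lowest without overlap. The log2 fold change between *db/db* and *db/m* was -1.11 (SE 0.20, edgeR quasi-likelihood adjusted p = 0.0313), and 17 of 18 alternatives kept it under 0.1. Its promoter line above holds a 2-unit match, unlike *Stip1*, *Ahsa1*, *Chordc1*, *Bag3* and *Dnajb1*, the others under 0.1 whose promoters were searched. Of its windows 14.8% occurred in other transcripts, as did 20.2% for *Ptges3*, 26.7% for *Hspd1*, 30.9% for *Dnajb6* and 42.5% for *Hspb1*, and 10 members, *Dnaja1* included, have exons that overlap a gene on the other strand.

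*Dnajb1*, the HSP40 that is induced together with HSP70, was at 246, 236 and 246 CPM in *db/m*, at 118, 101 and 98.0 CPM in *db/db* and at 279, 119 and 189 CPM in *db/db*-dapa mice. Its *db/m* values were close together, its *db/db*-dapa values were wide apart, and *db/db*-dapa replicate 2 was level with the highest *db/db* mouse. The log2 fold change between *db/db* and *db/m* was -1.20 (SE 0.26, edgeR quasi-likelihood adjusted p = 0.0657). The other DNAJ genes were *Dnaja2* (log2 fold change -0.30), *Dnajb6*, a suppressor of protein aggregation with a 3-unit element (-0.52), and *Dnajb4* (-0.35). The first 2 of these had groups apart, *Dnajb4* did not, and none of the 3 passed the test.

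**Figure D2:**
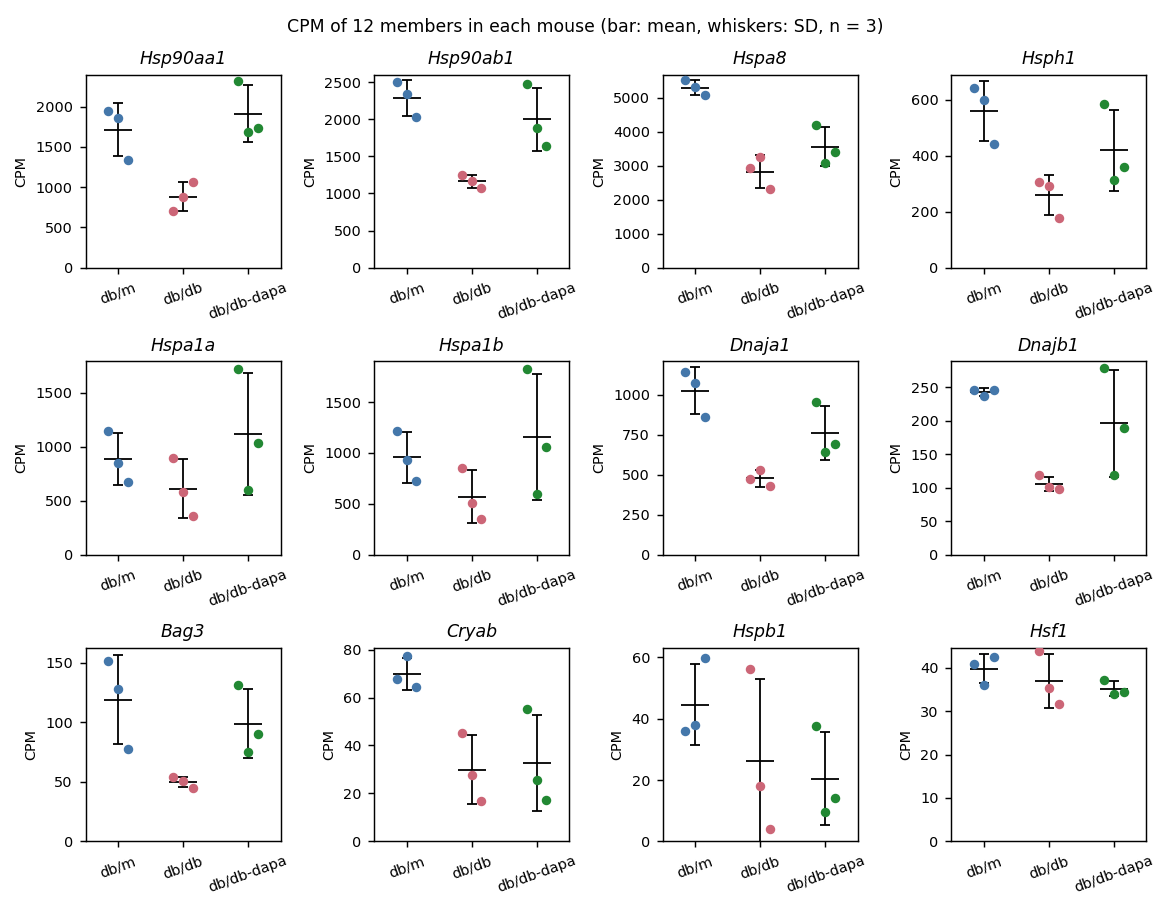
CPM (vertical axes, from 0) of 12 members in each mouse, with points for mice, bars for the mean and whiskers for the SD of 3 mice per group. For *Hsp90aa1*, *Hsp90ab1*, *Dnaja1*, *Bag3* and *Hsph1* the 3 *db/db* points lie below the other 6, whereas *Hspa1a*, *Hspa1b*, *Hspb1* and *Hsf1* overlap between groups.

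The small heat shock proteins, which hold unfolded proteins without using ATP, had low levels and large scatter. *Cryab*, alpha B-crystallin, was at 67.7, 77.3 and 64.4 CPM in *db/m*, at 45.2, 27.6 and 16.9 CPM in *db/db* and at 55.1, 25.5 and 17.1 CPM in *db/db*-dapa mice. All *db/m* values were above those of both other groups. The log2 fold changes against *db/m* were -1.25 (SE 0.42) for *db/db* and -1.11 (SE 0.41) for *db/db*-dapa mice, with adjusted p-values of 0.218 and 0.217 by edgeR's quasi-likelihood test.

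*Hspb1* (HSP27) was at 35.9, 38.0 and 59.9 CPM in *db/m*, at 56.1, 18 and 4.17 CPM in *db/db* and at 37.6, 9.45 and 14.3 CPM in *db/db*-dapa mice. The *db/db* mice spanned the range from near the highest to the lowest value of all 9. *Hspb8*, the partner of BAG3, had 10 to 51 counts per library and log2 fold changes of -1.33 (SE 0.52) and -1.25 (SE 0.49) against *db/m*, and neither passed the test.

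Markers of the distal nephron are set beside these genes because they varied between the same mice. The 4 thick ascending limb markers summed to 1453, 1244 and 1976 CPM in *db/m*, to 1601, 561 and 928 CPM in *db/db* and to 789, 751 and 942 CPM in *db/db*-dapa mice. The 4 collecting duct markers summed to 349, 216 and 707 CPM, to 453, 273 and 221 CPM and to 241, 134 and 182 CPM in the same order, and 0 of either list was at 0 in all mice. Both sums were highest in *db/db* replicate 1 among *db/db* mice, which also had the highest *Hspb1* and *Cryab* of its group. Among *db/m* mice, replicate 3 had the highest sums, the highest *Hspb1* and the lowest *Cryab*. Among *db/db*-dapa mice, replicate 1 had the highest *Hspb1*, *Cryab* and collecting duct sum, and replicate 3 the highest thick ascending limb sum. The part of distal cells in the small heat shock protein values was not tested.

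Of the mitochondrial chaperones, which import and fold proteins of the matrix, *Hspd1* was at 1065, 1001 and 768 CPM in *db/m*, at 562, 735 and 658 CPM in *db/db* and at 985, 890 and 897 CPM in *db/db*-dapa mice. *Hspe1* was at 416, 387 and 430 CPM, at 254, 313 and 150 CPM and at 396, 242 and 243 CPM. For both genes, every *db/db* mouse was below every *db/m* mouse, with log2 fold changes of -0.53 (SE 0.18) and -0.78 (SE 0.27), and neither passed the test. Their 5′ exons overlap on opposite strands, and whether reads were counted by strand was not stated. *Hspa9* (mortalin), the matrix HSP70, had overlapping groups and a log2 fold change of -0.24.

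The CCT ring lay lower in *db/db* mice by modest amounts, and none of its subunits passed the test. The 7 subunits on the list were *Tcp1*, *Cct2*, *Cct3*, *Cct4*, *Cct5*, *Cct7* and *Cct8*. All 7 had log2 fold changes below 0 between *db/db* and *db/m*, from -0.64 for *Cct3* to -0.22 for *Cct2*, and 5 of 7 had groups apart. In edgeR's quasi-likelihood test 0 of 7 passed (lowest adjusted p = 0.115, *Cct3*), and 2 (*Cct3* and *Cct5*) did so by DESeq2. *Cct6a* and *Cct6b*, outside the list, had log2 fold changes of -0.24 and -0.59 with overlapping groups, and neither passed edgeR's test. *Cct5* was at 174, 214 and 236 CPM in *db/m*, at 149, 151 and 147 CPM in *db/db* and at 203, 198 and 167 CPM in *db/db*-dapa mice. *Cct8* was at 224, 215 and 188 CPM, at 177, 191 and 158 CPM and at 178, 183 and 178 CPM. *Cct5* in *db/db* lay below all other mice, and *Cct8* overlapped between all groups except *db/db*-dapa and *db/m*.

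Neither regulator passed the test. *Hsf1*, the main activator of the heat shock response, was at 40.8, 36.1 and 42.4 CPM in *db/m*, at 43.8, 35.4 and 31.7 CPM in *db/db* and at 37.2, 33.9 and 34.4 CPM in *db/db*-dapa mice. The groups *db/m* and *db/db* overlapped, with a log2 fold change of -0.11 (SE 0.17, edgeR quasi-likelihood adjusted p = 0.802). *Hsf2* was at 25.5, 22.7 and 23.1 CPM in *db/m*, at 27.5, 21.6 and 18.8 CPM in *db/db* and at 22.3, 18 and 18.7 CPM in *db/db*-dapa mice. Its log2 fold change between *db/db* and *db/m* was -0.08 (SE 0.19), which turned to 0.03 with plain library totals. The activity of HSF1 is set largely at the protein level, which was not measured.

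Set side by side, family medians of the log2 fold change between *db/db* and *db/m* were -0.97 for HSP90, -0.71 for its co-chaperones, -0.65 for HSP70 and HSP110, -0.38 for HSP70 co-factors, -0.52 for DNAJ, -1.25 for small heat shock proteins, -0.53 for mitochondrial chaperones, -0.34 for CCT and -0.10 for heat shock factors. Leaving out 1 mouse at a time, the HSP90 median ranged from -1.09 to -0.88 and the CCT median from -0.38 to -0.28. The small heat shock protein median ranged from -1.86 to -0.97. The families were not tested against each other.

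**Figure D3:**
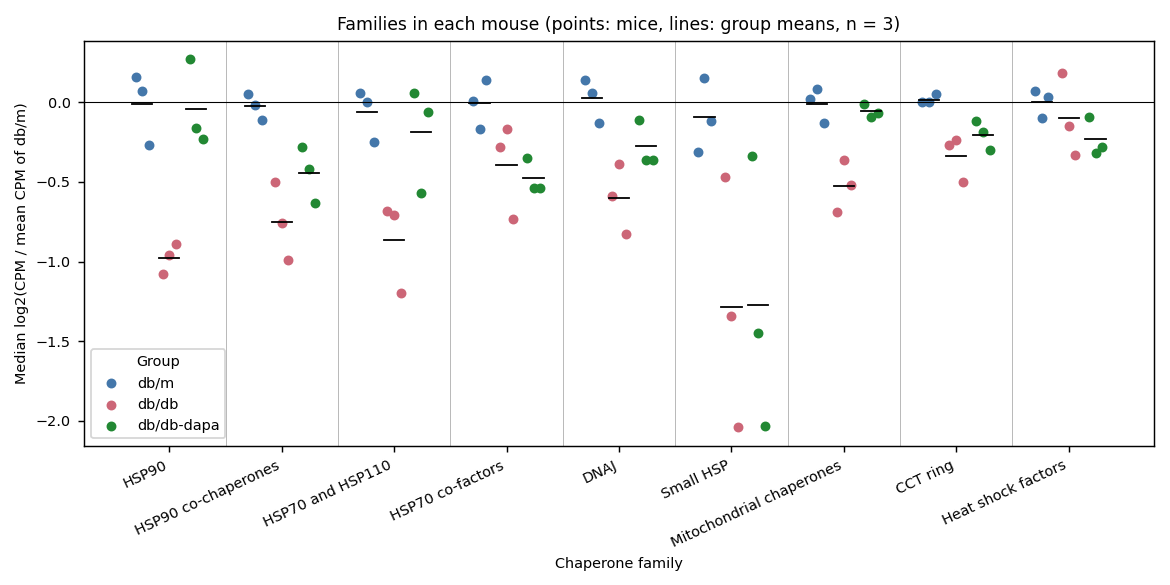
Median over each family's genes of log2(CPM over mean CPM of *db/m*) in each mouse (points, coloured by group), with lines for group means of 3 mice. HSP90 medians of the *db/db* mice lie between -1.08 and -0.89, and CCT medians between -0.50 and -0.24.

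Dapagliflozin-treated *db/db* mice were then set against *db/m* mice. None of the 40 members passed edgeR's quasi-likelihood test (0 of 40, lowest adjusted p = 0.176, *Chordc1*), with 11 members and 2829 genes at an unadjusted p under 0.05, 0 members by both criteria, and 4 members by DESeq2 (*Ahsa1*, *Chordc1*, *Hspa8* and *Cct3*), by which 6.39% of all genes passed. Over all genes, 0.558% were lower and 0.751% higher at an adjusted p under 0.1, and 0.475% were lower by both criteria. The median log2 fold change of the members was -0.25 against -0.02 over all genes, and 33 of 40 lay below 0. Groups were apart in the lower direction for 17 members and in the higher direction for 1, *St13*. The shares over all genes were 13.7% and 14.4%.

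The members apart from *db/m* in treated mice did not include the HSP90 genes, *Dnaja1* or *Dnajb1*. Every *db/db*-dapa mouse was below every *db/m* mouse for the co-chaperones *Stip1*, *Ahsa1*, *Fkbp4*, *Ptges3* and *Chordc1*, for *Hspa8*, for *Bag1*, *Stub1* and *Hspbp1*, for *Dnajb6*, *Hspb8* and *Cryab*, for *Cct2*, *Cct3*, *Cct7* and *Cct8*, and for *Hsf2*. *Hsp90aa1* had a log2 fold change of 0.16 (SE 0.22) and *Hsp90ab1* of -0.20 (SE 0.19) against *db/m*, with overlapping groups. The value of *Hsp90aa1* was -0.00 without *db/db*-dapa replicate 1, and those of *Hspa1a* (0.33) and *Hspa1b* (0.28) became -0.12 and -0.20. Family medians were -0.02 for HSP90, -0.50 for its co-chaperones, 0.01 for HSP70 and HSP110, -0.31 for DNAJ, -1.13 for small heat shock proteins and -0.22 for CCT.

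The contrast of treated with untreated *db/db* mice was in view when the genes were listed. Its values are therefore a description, and its test results lend the members no support. Both comparisons with *db/m* share mice with it. In edgeR's quasi-likelihood test 0 of 15583 genes (0%) passed, members included, with a lowest adjusted p of 0.854 and with 808 genes at an unadjusted p under 0.05, while DESeq2 put 21 genes under 0.1. Member log2 fold changes ranged from -0.28 (*Hspb1*) to 1.12 (*Hsp90aa1*, SE 0.23), with a median of 0.28, and 33 of 40 were above 0.

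Every *db/db*-dapa mouse was above every *db/db* mouse for 13 members and below for 0, where 4.9% of all genes were apart in the higher and 5.29% in the lower direction. The 13 were *Hsp90aa1*, *Hsp90ab1* (log2 fold change 0.78), *Chordc1* (0.47), *Hspa4l* (0.63), *Hsph1* (0.70), *Bag3* (0.99), *Dnaja1* (0.68), *Dnaja2* (0.18), *Dnajb1* (0.89), *Dnajb6* (0.18), *Hspd1* (0.50), *Tcp1* (0.22) and *Cct5* (0.35). *Hspa1b* had a fold change of 1.03 (SE 0.40) with overlapping groups. *Hspa8* was at 0.34 (SE 0.19), less than either HSP90 gene. The lowest values belonged to *Hspb1*, to the co-factors *Hspbp1* (-0.19), *Stub1* (-0.14) and *Bag1* (-0.10), to *Ptges3* (-0.06), and to *Hsf1* (-0.06) and *Hsf2* (-0.19). Some of these values turned on a single library. *Hspb1* ranged from -1.05 without *db/db*-dapa replicate 1 to 0.93 without *db/db* replicate 1, and *Stub1*, *Bag1*, *Ptges3* and *Hsf1* also took both signs with 1 mouse left out.

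Family medians in this contrast were 0.95 for HSP90, 0.31 for its co-chaperones, 0.63 for HSP70 and HSP110, -0.10 for HSP70 co-factors, 0.33 for DNAJ, 0.08 for small heat shock proteins, 0.34 for mitochondrial chaperones, 0.13 for CCT and -0.13 for heat shock factors. The HSP90 median is that of 2 genes. *Hsp90aa1* is among them, and its difference in this contrast was known when the list was drawn up, so the place of HSP90 here carries no weight. *db/db*-dapa replicate 1 had the highest value of the 9 mice for *Hsp90aa1*, *Hspa1a*, *Hspa1b* and *Dnajb1*. Without it the HSP90 median was 0.78 and the HSP70 and HSP110 median 0.39.

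**Figure D4:**
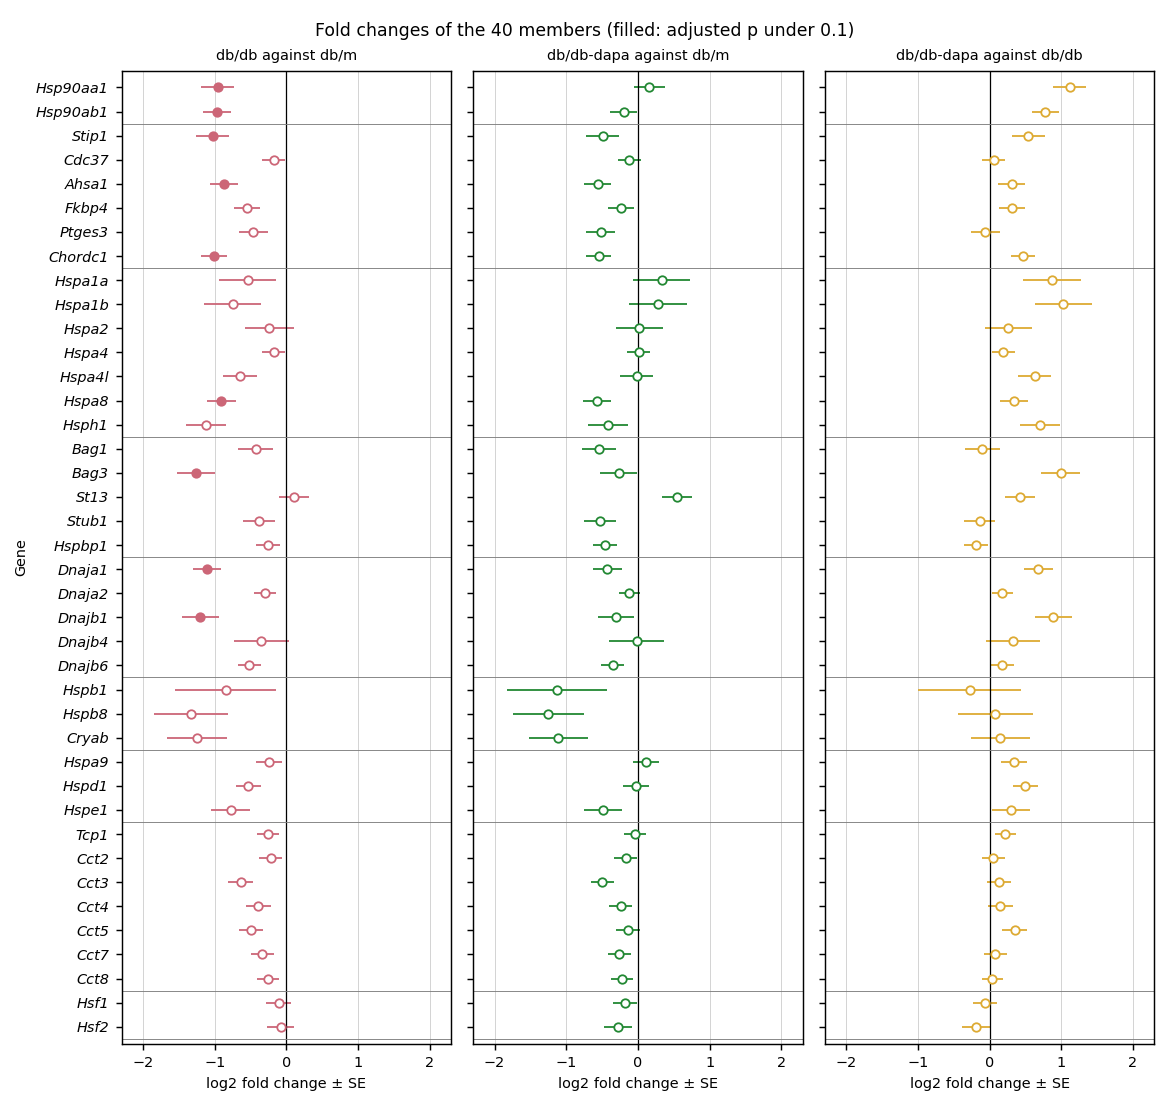
Log2 fold changes with SE bars of the 40 members (rows, by family) in the 3 comparisons, with filled points for an adjusted p under 0.1. The 9 filled points are all in the first panel and all lie left of 0.

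Per length of the longest transcript, *Hspa8* was the most abundant member in each group, at 1681 ± 70.3 CPM per kb in *db/m*, 895 ± 152 CPM per kb in *db/db* and 1130 ± 180 CPM per kb in *db/db*-dapa mice (SD over 3 mice). *Hsp90ab1* was next in each group, at 908 ± 95.3, 462 ± 35.5 and 793 ± 170 CPM per kb. In *db/m* and *db/db* mice the first and second ranks did not overlap between mice, and in *db/db*-dapa mice they did. *Hsp90aa1* followed in *db/m* at 523 ± 100 CPM per kb and in *db/db*-dapa mice at 583 ± 108 CPM per kb. In *db/db* mice its 269 ± 54.5 CPM per kb overlapped with *Hspd1* at 269 ± 35.7. At the low end were *Hspa4l*, *Hspb8* and *Hspa2*, all under 4 CPM per kb in every group. Of the 39 neighbouring pairs in the order, 7 were apart in *db/m* mice, 7 in untreated and 6 in treated *db/db* mice, so most neighbouring ranks did not differ beyond their spread.

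**Figure D5:**
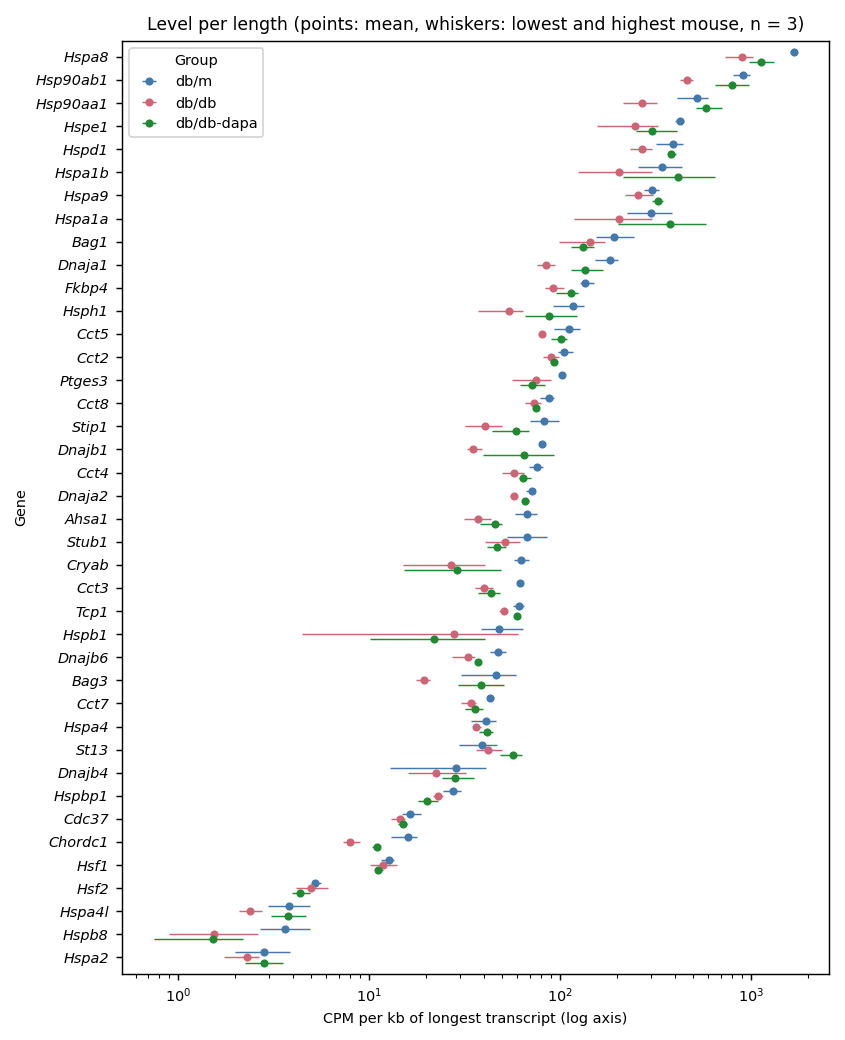
Mean CPM per kb of longest transcript (log axis) of the 40 members in the 3 groups, with whiskers from the lowest to the highest of 3 mice. *Hspa8* stands at the top in all groups and *Hspa2*, *Hspb8* and *Hspa4l* at the bottom.

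Related genes outside the 40 were read from lists by function. A list of 56 other chaperones, co-chaperones and related genes was not limited to the cytosol. Of these, 55 were tested and 1 was lower in *db/db* than in *db/m* by the adjusted threshold. It was *Dnaja4*, a DNAJ relative of *Dnaja1*, at 80.0, 65.8 and 67.9 CPM in *db/m*, 29.9, 26.0 and 18.6 CPM in *db/db* and 52.5, 32.7 and 34.2 CPM in *db/db*-dapa mice. The 3 groups did not overlap, and the log2 fold change between *db/db* and *db/m* was -1.54 (edgeR quasi-likelihood adjusted p = 0.0135). Since 0.879% of all genes were lower at that threshold, 1 of 55 does not tell this list from all genes. The median of the list was -0.19, with 40 of 55 below 0. Of 6 other HSF1 targets, 5 were below 0 and none passed, with *Serpinh1*, the collagen chaperone HSP47, lowest at -1.13 (adjusted p = 0.103). For so few genes, the absence of calls does not tell them from all genes either.

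The chaperones of the endoplasmic reticulum, which answer to a separate stress response, gave 0 of 14 calls in each comparison. Since 1.67% of all genes passed between *db/db* and *db/m*, 0 of 14 there does not tell this list from all genes. The medians were -0.23 between *db/db* and *db/m*, 0.05 between *db/db*-dapa and *db/m* and 0.24 between treated and untreated *db/db* mice. Between *db/db* and *db/m*, 13 of 14 were below 0, and 14 of 14 were above 0 between treated and untreated *db/db* mice. Both directions were those of the members' medians (-0.53 and 0.28). Between *db/db*-dapa and *db/m*, 9 were above and 5 below 0, where the members' median was -0.25. Immediate-early genes, which cell dissociation can induce, gave 0 of 18 calls, and this does not tell them from all genes either. Their median was 0.21 between *db/db* and *db/m*. Their summed level was highest in *db/db* replicate 2 (9833 CPM) and lowest in *db/db* replicate 1 (3595 CPM), and the part of dissociation in the members' values was not tested. Among the other lists, the highest and lowest fitted differences between treated and untreated *db/db* mice belonged to genes of few counts or wide scatter. *Hsf4* had 7, 9 and 7 counts in *db/db* and 1, 0 and 2 in *db/db*-dapa mice, *Hsf5* at most 2 and *Cryaa* at most 4 in any mouse, and *Sdf2l1* had 27, 21 and 27 counts against 84, 228 and 38.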

How the data were processed

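RNA of sorted proximal tubular cells (3 mice per group, 101 bp reads) had been aligned to mm10. Per the submitters' notes TopHat2 2.0.13, Bowtie2 2.2.3, SAMtools 0.1.19 and Cufflinks 2.2.1 were used. The deposited values are estimated counts per gene, although the table is named for FPKM, since 90.95% were whole and totals differed between mice. How the authors counted by strand is not given in the sources used here. Counts were rounded and tested in R 4.3.3 with edgeR 4.0.16 (TMM, quasi-likelihood, all 3 groups in 1 fit, filter 0.3 CPM in at least 2 of 9 mice, Benjamini-Hochberg over 15583 genes). Calls used an adjusted p under 0.1, with or without an absolute log2 fold change over 1. The common biological coefficient of variation was 0.259. DESeq2 1.42.0, limma 3.58.1 on log2(CPM + 1), other scalings, filters, call rules, fits and left-out mice were alternatives. Symbols were assigned positions and lengths from GENCODE M21.

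On simulated data for *db/db* against *db/m*, with 15583 genes of which 200 were changed, edgeR found 53 of 200 at 2-fold and 154 of 200 at 4-fold, all in the right direction, with 6 and 22 false calls. For *db/db*-dapa against *db/db* it found 37 and 145 of 200, with 3 and 16 false calls. The members and lists were chosen with earlier results of these data known. All 40 members were named, with values in every mouse for those with an adjusted p under 0.1, for 12 key genes and for the highest and lowest member of families without one. From other lists, genes under 0.1 and the 2 highest and 2 lowest between *db/db*-dapa and *db/db* were named. Labels do not say whether mice came from separate litters, so p-values measure the spread between these mice.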

Additional observations from a re-analysis of the deposited data

How the results depend on the processing

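Between *db/db* and *db/m*, 5 members passed both criteria, as did 1.24% of all genes. The number was 3 with plain library totals (1.5% of all genes), 2 with limma (1.23%) and 9 at any fold (1.67%). It was 0 to 6 when 1 mouse was left out, with 0.545% to 1.48% of all genes. Members at an adjusted p under 0.1 (9) numbered 16 with DESeq2 with or without its independent filtering (5.11% and 4.67% of all genes). They numbered 5 with limma (1.54%), 4 with the 2 groups alone (0.751%), and 0 to 7 when 1 mouse was left out (0.552% to 1.94%). Between *db/db*-dapa and *db/m* (0 in the main analysis), 2 passed both criteria with limma and mouse weights (5.96% of all genes). With 1 mouse left out, 0 to 1 did so (0.0898% to 1.69% of all genes). At an adjusted p under 0.1 there were 4 with DESeq2 with or without that filtering (6.39% and 5.48% of all genes). There were 22 with mouse weights (38.5%) and 5 with the 2 groups alone (9.57%). With 1 mouse left out there were 0 to 1 (*Cryab*, without *db/db*-dapa replicate 1, where 1.96% of all genes passed). Between *db/db*-dapa and *db/db* (0), DESeq2 gave 1 by both criteria (0.0834% of all genes) and 2 at an adjusted p under 0.1 (0.135%). Leaving out 1 mouse gave 0 to 1 (1 without *db/db* replicate 3, with 419 genes in all, 2.69%). These last counts include *Hsp90aa1*, whose difference was known when the list was drawn up, and support nothing. Plain library totals moved the median of all genes between *db/db* and *db/m* from 0.02 to 0.13.

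Some log2 fold changes near 0 changed sign. Between *db/db* and *db/m* this held for *Hspa2* (0.01 with mouse weights), *St13* (-0.05 with mouse weights) and *Hsf2* (0.03 with library totals). Leaving out 1 mouse, they ranged from -0.44 to 0.04, from -0.07 to 0.26 and from -0.24 to 0.03. Between *db/db*-dapa and *db/m*, mouse weights gave -0.09 for *Hsp90aa1*, -0.46 for *Hspa1a*, -0.55 for *Hspa1b*, 0.31 for *Hspa4l* and 0.02 for *Cct5*. Upper quartile scaling gave -0.04 for *Hspa2* and *Hspa4*, and size factors of DESeq2, in edgeR or in DESeq2, gave -0.00 for *Hspa4*. Library totals gave 0.02 for *Hspa4l* and *Dnajb4*, 0.01 for *Hspd1* and 0.00 for *Tcp1*, and limma gave 0.12 for *Dnajb4*. Leaving out 1 mouse gave values from -0.00 to 0.26 for *Hsp90aa1*, from -0.12 to 0.64 for *Hspa1a*, from -0.20 to 0.60 for *Hspa1b*, from -0.18 to 0.30 for *Hspa2*, from -0.11 to 0.10 for *Hspa4*, from -0.21 to 0.21 for *Hspa4l*, from -0.38 to 0.32 for *Dnajb4*, from -0.17 to 0.06 for *Hspd1* and from -0.09 to 0.01 for *Tcp1*. Between *db/db*-dapa and *db/db*, 11 of 40 members changed sign in some alternative, namely *Cdc37*, *Ptges3*, *Bag1*, *Stub1*, *Hspb1*, *Hspb8*, *Cryab*, *Hspe1*, *Cct2*, *Cct8* and *Hsf1*. With 1 mouse left out, *Hspb1* ran from -1.05 to 0.93, *Cryab* from -0.45 to 0.55 and *Hspb8* from -0.25 to 0.61. The cause of these changes was not tested.

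The replicate numbers are not stated to pair mice, and correlations of same-numbered mice's deviations from group means ran from -0.323 to 0.563. With the number as a block, 10 members had an adjusted p under 0.1 (1.42% of all genes) and 7 passed both criteria (1.19%) between *db/db* and *db/m*. In that fit *Dnajb4* was at 0.10 between *db/db*-dapa and *db/m*. Depth limits the members with few counts, such as *Hspb8* with 10 to 51 per library.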
